A study of Mus musculus with 4 samples.

Results

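The genes described here encode the nuclear subunits of respiratory complexes II, III, IV and V, together with the electron carrier cytochrome c. They were taken by name from a list of 42 genes, all of which were found among the 48432 gene rows of the authors' table. Complex II was represented by 4 genes, complex III by 9, cytochrome c by 1, complex IV by 13 and complex V by 15. The rule that selects them uses gene names and no measured value, although it was written with earlier results of these data known.

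The RNA came from cardiomyocytes, which are the beating muscle cells of the heart, freed by Langendorff perfusion, in which enzyme is passed through the coronary vessels. The MHC group (2 libraries) came from mice with the genotype label MHC alone, and the Rbfox2 OE group (2 libraries) came from mice labelled RbFox2, which overexpress RBFOX2, a protein that binds RNA and steers splice choice. Mice of both groups were C57BL x FVB, and both had eaten a diet with doxycycline, the inducer, for 3 days. The promoter that drives the transgene, the isoform carried by these mice and the age of the animals are not given in the labels, although the title of the series concerns the non-muscle RBFOX2 isoform and conduction defects in myotonic dystrophy.

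The authors' table gave 1 FPKM value per gene and group (fragments scaled to transcript length and to the mapped total), pooled over the 2 libraries of the group, and a bound on either side of it. There was no value per library, so no spread between replicates could be computed and no test was possible; a difference is described as separate when the bounds of the groups did not overlap. Values are written below with the authors' bounds in parentheses. Rbfox2 itself stood at 14.7 FPKM in MHC and at 293 FPKM in Rbfox2 OE, higher in the group labelled as overexpressing it. How deeply each library was sequenced is unknown. Scaling mattered at the size of the differences seen here: rescaling the groups to their sums without the 10 most abundant and the mitochondrially encoded genes added 0.15 (log2) to every Rbfox2 OE value, and the median log2 ratio of all genes went from -0.06 to 0.06. For the members and each complex the median is therefore also given on rescaling and relative to the median gene.

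The respiratory chain passes electrons from NADH and succinate to oxygen and uses the energy to pump protons out of the mitochondrial matrix, and the flow of protons back through complex V drives ATP synthesis. Complex II oxidises succinate and belongs also to the tricarboxylic acid (TCA) cycle. Complex III hands electrons to cytochrome c, and complex IV passes them from cytochrome c to oxygen. The catalytic cores of complexes III and IV include subunits encoded by mitochondrial DNA, whereas complex II is encoded by nuclear genes alone. The heart, which beats without pause, has a very high demand for ATP and is rich in mitochondria, and it expresses muscle forms of several complex IV subunits.

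These transcripts were among the most abundant in the cardiomyocytes. All 42 genes had an estimate with status OK in both groups, and 42 passed the minimum mean of 1 FPKM. They ranked between 11 and 422 in the MHC group when all genes with an estimate were ordered by level. Of the 100 most abundant of these genes, 27 were members. Their FPKM values summed to 48405 in MHC and 37724 in Rbfox2 OE, which was 9.44% and 8.44% of the sum over all genes with an estimate. The status HIDATA, given where fragments are too numerous for an estimate, applied to 30 rows in MHC and 26 in Rbfox2 OE. These rows do not enter the ranks and sums, so the true ranks are lower and the true shares smaller, and the 2 sums cover slightly different genes. The lowest member in MHC was Cox6a1 at 173 FPKM and the highest was Cox6a2 at 4306 FPKM, both genes for the same complex IV subunit.

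Most members stood slightly lower in Rbfox2 OE, and few stood much lower. The log2 ratio, with Rbfox2 OE over MHC and a pseudocount of 1 FPKM, was below 0 for 39 of the 42 genes (92.9%), against 53.8% of the 11697 genes compared. It was above 0 for 3 members (Uqcrb, Cox8a and Cox6a1), against 46.2%. On rescaling it was below 0 for 31 (73.8%), against 45.7% of all genes, and 37 (88.1%) were below the median gene, against 50%. The median log2 ratio of the members was -0.31, against -0.06 over all genes compared, and on rescaling the same medians were -0.16 and 0.06. Over the 697 genes at 100 FPKM or more on average, a level closer to that of the members, the median was -0.12 and 58.7% were below 0. These 697 genes include the 42 members. Relative to the median gene the median of the members was -0.24. The log2 ratios of the members ran from -1.18 to 0.10.

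Few members passed a threshold, and those that did stood lower in Rbfox2 OE. The bounds were separate, with Rbfox2 OE lower, for 3 members (7.14%), against 9.33% of all genes compared, and separate with Rbfox2 OE higher for 0 members, against 6.66%. A value at least 1.5-fold lower was found for 7 members (16.7%), against 22.1% of all genes, and 1.5-fold higher for 0 members, against 16.6%. The shares were below the background on the lower side as well as on the higher side. Over the 697 genes at 100 FPKM or more on average, members included, 11.6% had separate bounds with Rbfox2 OE lower and 22.4% were at least 1.5-fold lower. The bounds lay at a median of 28.6% from the value in MHC and 28.8% in Rbfox2 OE, so that bounds of that width separate only when the values differ by about 1.80-fold.

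**Figure D1:**
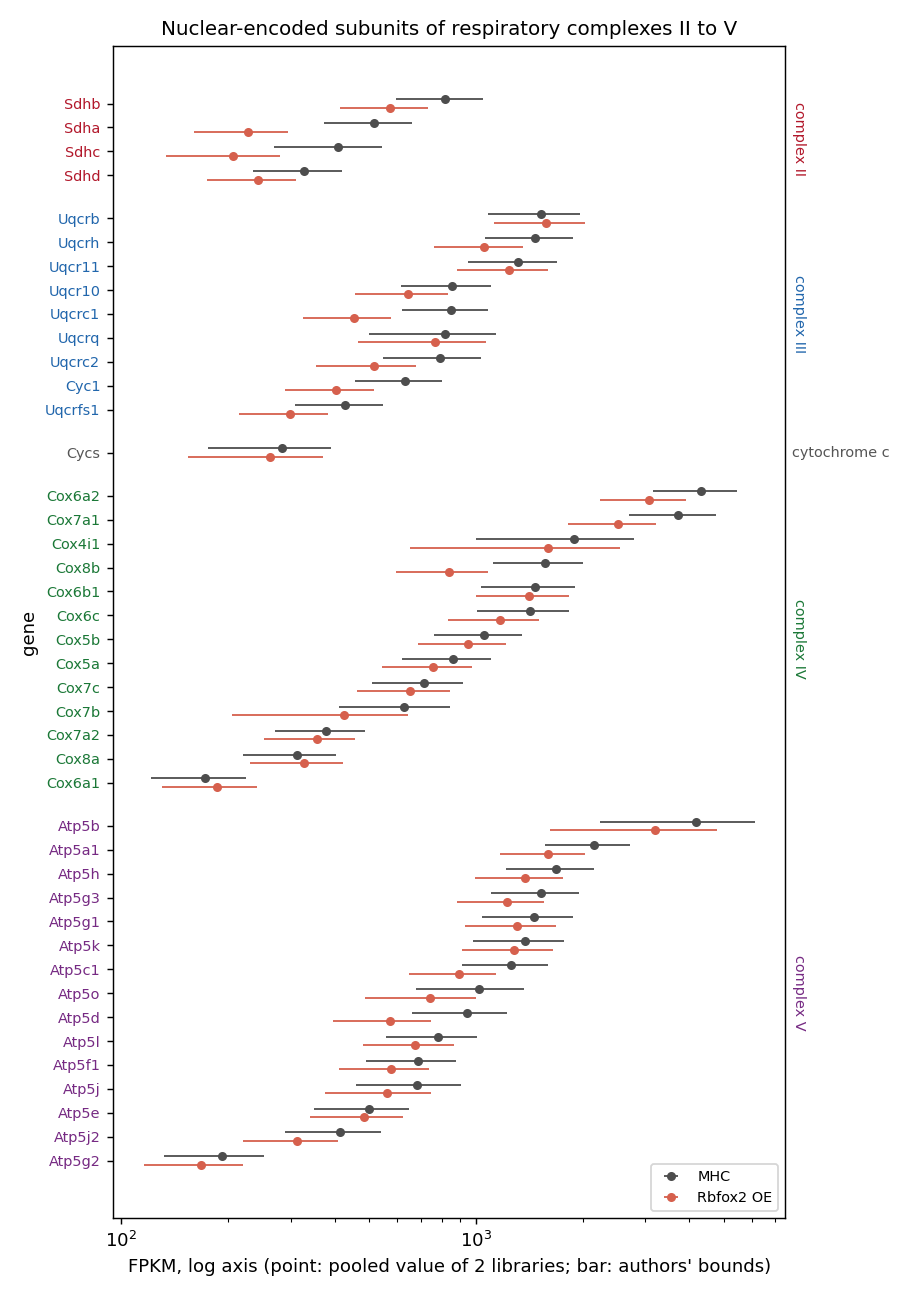
Pooled FPKM values (log axis) of the 42 genes in MHC (grey) and Rbfox2 OE (red), ordered within each complex by the MHC level, with bars for the authors' bounds. The Rbfox2 OE point lies to the left of the MHC point for 39 genes, and the bars fail to overlap for Sdha, Uqcrc1 and Cox8b.

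Complex II, succinate dehydrogenase, showed the lowest median of the complexes. Its 4 genes had a median log2 ratio of -0.75. All 4 were below 0 as deposited, on rescaling and relative to the median gene, against 53.8%, 45.7% and 50% of all genes compared. The median was -0.60 on rescaling and -0.69 relative to the median gene. Their summed level was 2070 FPKM in MHC and 1249 FPKM in Rbfox2 OE.

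Sdha encodes the flavoprotein that oxidises succinate (ENSMUSG00000021577, GRCm38 chromosome 13, 74322254 to 74350280, minus strand, protein-coding). It stood at 516 FPKM in MHC (373 to 659) and at 228 FPKM in Rbfox2 OE (161 to 294). The bounds were separate, and the log2 ratio of -1.18, or -1.03 on rescaling, was the lowest of the 42 genes under both scalings. Taken from the bounds, the log2 ratio could lie anywhere from -2.03 to -0.34.

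Sdhc encodes one of the membrane anchors that hold the haem and bind ubiquinone (chromosome 1, 171127165 to 171150603, minus strand). It stood at 407 FPKM in MHC (270 to 545) and at 206 FPKM in Rbfox2 OE (134 to 279), a log2 ratio of -0.98. Its value was 0.507 of the MHC value, but the bounds overlapped by 9.70 FPKM. The other anchor, Sdhd, stood at 327 FPKM in MHC (235 to 420) and 243 FPKM in Rbfox2 OE (174 to 312), a log2 ratio of -0.43. The iron-sulfur subunit gene Sdhb stood at 820 FPKM (594 to 1046) against 572 FPKM (412 to 732), a log2 ratio of -0.52. For Sdhb and Sdhd the bounds overlapped widely, and the order of the 4 log2 ratios lies within those bounds.

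Complex III, the cytochrome bc1 complex, had a median log2 ratio of -0.47 over 9 genes. Of these, 8 (88.9%) were below 0 as deposited, against 53.8% of all genes compared, and 6 (66.7%) on rescaling, against 45.7%. The median was -0.33 on rescaling and -0.41 relative to the median gene. Over Uqcrc1, Uqcrc2, Uqcrfs1 and Cyc1 the median was -0.63, and over the 5 small subunits Uqcrb, Uqcrq, Uqcrh, Uqcr10 and Uqcr11 it was -0.09. Groupings by role within complexes III, IV and V, other than the isoform pairs, were made after the values had been seen.

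Uqcrc1 encodes the core protein 1 that faces the matrix (chromosome 9, 108936633 to 108949623, plus strand). It stood at 851 FPKM in MHC (619 to 1083) and at 452 FPKM in Rbfox2 OE (326 to 578). The bounds were separate by 41.2 FPKM, and the log2 ratio was -0.91. On rescaling it was -0.76 and the bounds overlapped.

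Its partner Uqcrc2, the core protein 2, stood at 791 FPKM in MHC (548 to 1033) and 516 FPKM in Rbfox2 OE (354 to 678), a log2 ratio of -0.62. Cyc1, which encodes cytochrome c1, the subunit that passes electrons to cytochrome c, stood at 631 FPKM (457 to 805) against 403 FPKM (289 to 516), a log2 ratio of -0.65. Uqcrfs1, which encodes the Rieske iron-sulfur protein, stood at 429 FPKM (309 to 548) against 299 FPKM (215 to 384), a log2 ratio of -0.52. These 3 genes were lower in Rbfox2 OE by similar amounts, each with overlapping bounds.

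Of the small subunits, Uqcrb, the ubiquinone-binding protein, was nearly level, at 1523 FPKM in MHC (1080 to 1967) and 1578 FPKM in Rbfox2 OE (1126 to 2031). Uqcr11 stood at 1319 and 1242 FPKM, and Uqcrq at 819 and 768 FPKM. The hinge protein gene Uqcrh, at 1470 and 1058 FPKM with a log2 ratio of -0.47, and Uqcr10, at 858 and 645 FPKM with a log2 ratio of -0.41, lay closer to the core genes. The bounds of all 5 overlapped, and on rescaling the log2 ratios of Uqcrb, Uqcrq and Uqcr11 were above 0, at 0.20, 0.05 and 0.06.

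Cycs, the somatic cytochrome c gene, stood at 284 FPKM in MHC (176 to 391) and 263 FPKM in Rbfox2 OE (155 to 371), a log2 ratio of -0.11 that became 0.04 on rescaling. Of the 50-base sequences in its annotated transcripts, 28.2% also occurred in other genes, so its value depends on how fragments were assigned.

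**Figure D2:**
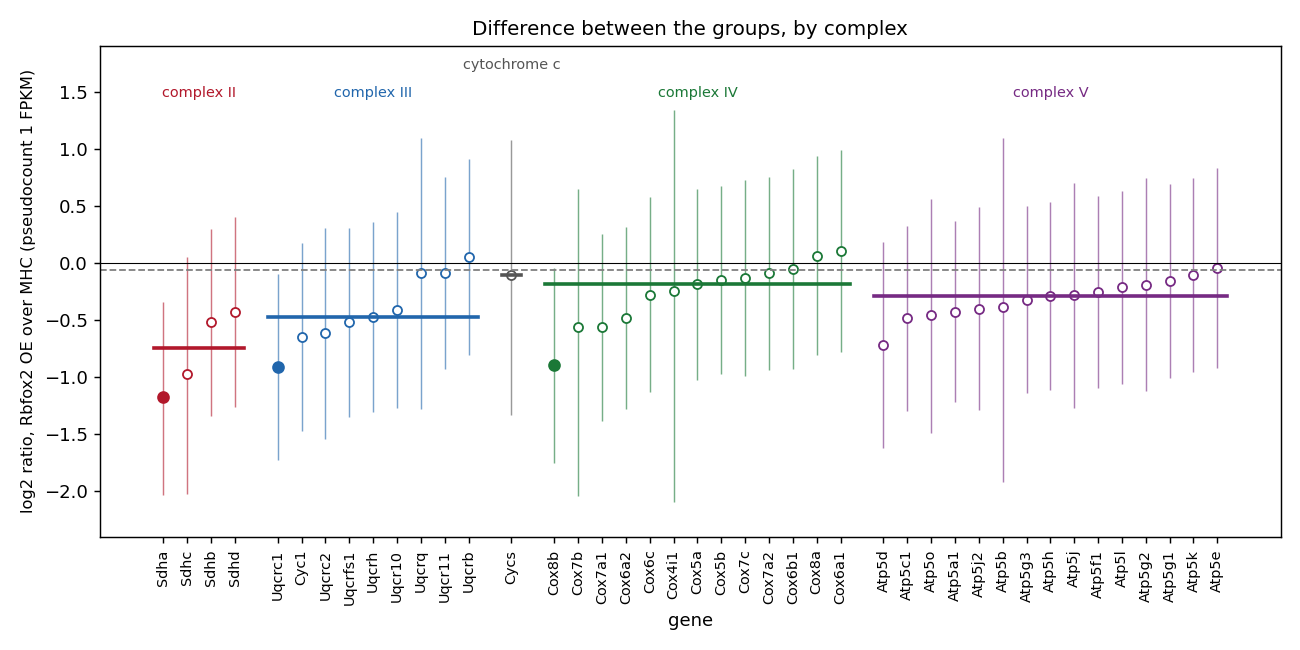
Log2 ratio (Rbfox2 OE over MHC, pseudocount 1 FPKM) for each gene, grouped by complex. Bars run from the lowest to the highest log2 ratio that the authors' bounds allow, and filled points mark separate bounds. A thick line marks the median of each complex and a dashed line the median of all genes. Complex II sits lowest (median -0.75) and complex IV highest (median -0.19), and most bars cross 0.

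Complex IV, cytochrome c oxidase, had a median log2 ratio of -0.19 over 13 genes. Of these, 11 (84.6%) were below 0 as deposited, against 53.8% of all genes compared, and 8 (61.5%) on rescaling, against 45.7%. On rescaling the median was -0.04, close to 0, and relative to the median gene it was -0.13. The genes divided by isoform. Subunits 6a, 7a and 8 each exist in a form typical of heart and skeletal muscle (Cox6a2, Cox7a1 and Cox8b) and a form found in most tissues (Cox6a1, Cox7a2 and Cox8a). The 3 muscle forms had log2 ratios from -0.89 to -0.48, and the 3 ubiquitous forms from -0.09 to 0.10. Their summed levels were 9595 and 6443 FPKM for the muscle forms in MHC and Rbfox2 OE, and 864 and 868 FPKM for the ubiquitous forms.

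Cox8b (chromosome 7, 140898945 to 140900446, minus strand) stood at 1563 FPKM in MHC (1119 to 2006) and at 841 FPKM in Rbfox2 OE (596 to 1086). Its bounds were separate, by 33.5 FPKM, which made it the member closest to overlap among those that were separate, and they overlapped on rescaling and on centring at the median gene. Its log2 ratio was -0.89. The ubiquitous Cox8a stood at 312 FPKM (221 to 404) and 327 FPKM (231 to 422). Cox8b thus made up 83.3% of the FPKM of the pair in MHC and 72.0% in Rbfox2 OE, a difference of 11.3 percentage points.

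Cox7a1 stood at 3727 FPKM in MHC (2699 to 4754) and 2520 FPKM in Rbfox2 OE (1818 to 3222), a log2 ratio of -0.56. Cox7a2 stood at 379 FPKM (271 to 487) and 355 FPKM (253 to 457). The share of Cox7a1 in the pair was 90.8% in MHC and 87.6% in Rbfox2 OE. The difference was in the same direction as for subunit 8 and smaller, with overlapping bounds for both genes.

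Cox6a2 stood at 4306 FPKM in MHC (3154 to 5457) and 3082 FPKM in Rbfox2 OE (2245 to 3919), a log2 ratio of -0.48. Cox6a1 stood at 173 FPKM (121 to 224) and 186 FPKM (130 to 241), the highest log2 ratio of all 42 genes at 0.10. The share of Cox6a2 was 96.1% in MHC and 94.3% in Rbfox2 OE. All 3 shares were lower in Rbfox2 OE, and a share within a pair does not move with the scaling of the groups. The extremes that the bounds allow overlapped for each pair, from 73.5% to 90.1% in MHC against 58.5% to 82.5% in Rbfox2 OE for Cox8b.

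**Figure D3:**
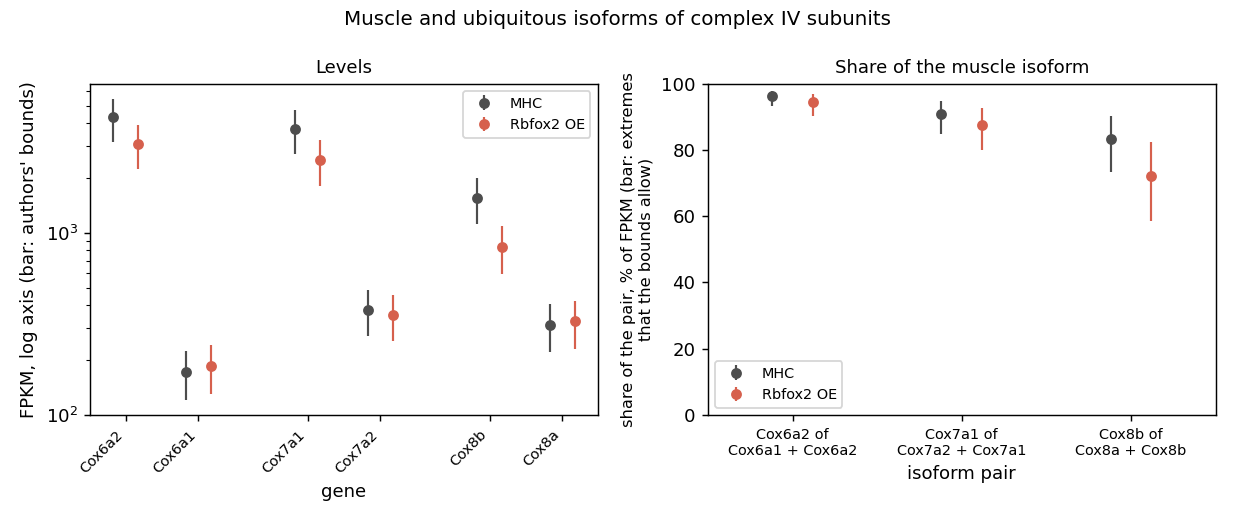
Left, pooled FPKM (log axis) with the authors' bounds of the muscle and ubiquitous isoform genes of complex IV subunits 6a, 7a and 8 in MHC (grey) and Rbfox2 OE (red). Right, the share of the muscle isoform in the FPKM of each pair, with bars for the extremes that the bounds allow; each share is lower in Rbfox2 OE, and the gap is 11.3 percentage points for Cox8b.

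The promoters of the 2 forms differ in their content of CG dinucleotides, and the 150 bases before the start of transcription are shown for the pairs for which both genes are in the RefSeq promoter table (build GRCm38.p6), 5′ to 3′ on the strand of the gene, with each CG in capitals. The Cox7a1 stretch lies at chr7:30184021-30184170, plus strand, Cox7a2 at chr9:79759854-79760003, minus strand, Cox8b at chr7:140900447-140900596, minus strand and Cox8a at chr19:7217617-7217766, minus strand. The starts are those of RefSeq, and GENCODE places the starts of Cox7a1 and Cox7a2 within the stretches shown.
Cox7a1: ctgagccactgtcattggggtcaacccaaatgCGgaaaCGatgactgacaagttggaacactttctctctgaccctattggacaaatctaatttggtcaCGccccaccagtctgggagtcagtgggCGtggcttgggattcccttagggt
Cox7a2: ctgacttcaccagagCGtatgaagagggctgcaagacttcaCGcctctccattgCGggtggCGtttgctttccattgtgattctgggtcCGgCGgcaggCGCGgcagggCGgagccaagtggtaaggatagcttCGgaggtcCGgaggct
Cox8b: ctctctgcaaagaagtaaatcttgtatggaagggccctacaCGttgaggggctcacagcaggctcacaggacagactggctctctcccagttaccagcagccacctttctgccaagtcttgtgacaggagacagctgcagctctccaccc
Cox8a: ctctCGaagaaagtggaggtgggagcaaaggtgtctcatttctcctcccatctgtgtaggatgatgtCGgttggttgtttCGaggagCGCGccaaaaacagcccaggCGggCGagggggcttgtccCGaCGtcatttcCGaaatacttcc
Within these 150 bases Cox7a1 held 4 CG pairs and Cox7a2 held 11, while Cox8b held 1 and Cox8a held 10. Over the 250 bases before the start, the counts were 4 and 14 for Cox7a1 and Cox7a2, and 1 and 11 for Cox8b and Cox8a. The median was 14 over the 33 members with a promoter in the table and 6 over all its 32851 promoters. Over the 33 members, the number of CG pairs and the log2 ratio had a Spearman's rho of 0.32, a description across genes that share the same libraries and differ also in base composition.

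Over the remaining complex IV genes, which have no such muscle form among the members, namely Cox4i1, Cox5a, Cox5b, Cox6b1, Cox6c, Cox7b and Cox7c, the median log2 ratio was -0.19, from -0.57 to -0.06. Cox7b had the lowest of these log2 ratios, -0.57 against -0.56 for the muscle form Cox7a1, with 628 FPKM in MHC (411 to 846) and 424 FPKM in Rbfox2 OE (205 to 643). Cox4i1, a regulatory subunit gene present in most tissues, stood at 1896 FPKM (1004 to 2789) and 1600 FPKM (652 to 2548), with the widest bounds of the 42 genes relative to its value. The table placed it in a locus with 189 gene rows, against 1 to 10 for the other members. Cox5a, which binds thyroid hormone metabolites, stood at 863 and 758 FPKM and Cox5b, which binds zinc, at 1057 and 951 FPKM. Cox6b1, which lies where the monomers of the dimer meet, was nearly level at 1473 and 1417 FPKM. Cox6c stood at 1418 and 1169 FPKM and Cox7c at 714 and 653 FPKM. On rescaling, Cox6b1 and Cox7c lay above 0, at 0.09 and 0.02.

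Complex V, the ATP synthase, had a median log2 ratio of -0.29 over 15 genes. All 15 were below 0 as deposited, against 53.8% of all genes compared, and 13 (86.7%) on rescaling, against 45.7%. On rescaling the median was -0.14, and relative to the median gene it was -0.23. Its range was narrow, from -0.72 to -0.05. The complex had no gene with separate bounds, against 9.33% of all genes (Rbfox2 OE lower) and 6.66% (higher). Its genes summed to 18852 FPKM in MHC and 14970 FPKM in Rbfox2 OE.

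The catalytic F1 head is built from the alpha, beta, gamma, delta and epsilon subunits. Atp5b, the beta subunit that holds the catalytic sites, was the most abundant at 4179 FPKM in MHC (2237 to 6121) and 3201 FPKM in Rbfox2 OE (1619 to 4784), a log2 ratio of -0.38. Atp5a1, the alpha subunit, stood at 2148 FPKM (1572 to 2723) and 1598 FPKM (1167 to 2029), a log2 ratio of -0.43. Atp5c1, the gamma subunit that turns within the head, stood at 1257 FPKM (913 to 1600) and 896 FPKM (649 to 1143), a log2 ratio of -0.49. These log2 ratios lay close together. The delta and epsilon subunit genes were the extremes of the whole complex. Atp5d stood at 941 FPKM (660 to 1223) and 572 FPKM (396 to 748), a log2 ratio of -0.72, and Atp5e at 498 FPKM (351 to 646) and 482 FPKM (340 to 624), a log2 ratio of -0.05. On rescaling, Atp5e lay above 0, at 0.10, and the F1 median was -0.28 in place of -0.43.

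The peripheral stalk holds the head still against the turning rotor, and its 4 genes Atp5f1, Atp5h, Atp5j and Atp5o had a median log2 ratio of -0.29. Atp5o, which encodes the oligomycin sensitivity conferring protein, had the lowest, with 1021 FPKM in MHC (677 to 1366) and 742 FPKM in Rbfox2 OE (486 to 999). Atp5f1 stood at 685 and 575 FPKM, Atp5h at 1687 and 1379 FPKM, and Atp5j at 683 and 561 FPKM. All 4 remained below 0 on rescaling, against 45.7% of all genes compared.

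Subunit c forms the proton-driven ring of the rotor and is made from 3 genes that encode the same mature protein with different import sequences. Atp5g1 stood at 1459 FPKM in MHC (1042 to 1875) and 1307 FPKM in Rbfox2 OE (930 to 1684). Atp5g3 stood at 1527 FPKM (1105 to 1949) and 1222 FPKM (883 to 1561). Atp5g2 was far lower, at 192 FPKM (132 to 253) and 168 FPKM (116 to 221). The mix of the 3 differed little between the groups. Atp5g1 made up 45.9% of their FPKM in MHC and 48.5% in Rbfox2 OE, Atp5g2 6.05% and 6.24%, and Atp5g3 48.0% and 45.3%. The small membrane subunits Atp5j2, Atp5k and Atp5l had log2 ratios of -0.40, -0.11 and -0.21, and Atp5k lay above 0 on rescaling, at 0.04.

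Across the members the log2 ratio was lower for genes with longer coding sequences. Over 11 members with a longest annotated coding sequence of 600 bases or more the median was -0.52, and over the 31 shorter ones it was -0.21. The Spearman's rho of coding length and log2 ratio was -0.53 over 42 genes, which share libraries and a length correction by the authors' software. Over the 680 genes at 100 FPKM or more on average with an annotated coding sequence the rho was -0.30. Over all 11103 genes compared with such a sequence it was -0.07. Both sets include the 42 members, so neither is separate from them. The part of length in the differences between complexes was not tested. Cox8b, with 210 bases, and Sdhc, with 507 bases, were among the lowest log2 ratios although both are short.

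**Figure D4:**
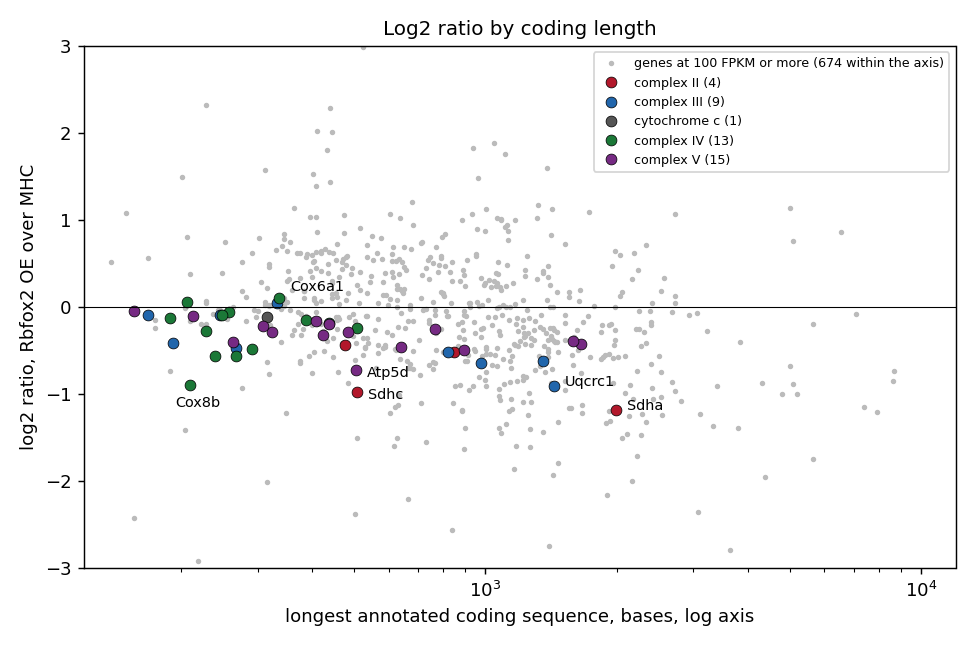
Log2 ratio of Rbfox2 OE over MHC against the longest annotated coding sequence in bases (log axis), with the members coloured by complex and other genes at 100 FPKM or more in grey (values beyond 3 in size are outside the axis). The members with longer coding sequences, such as Sdha and Uqcrc1, lie lower, while Cox8b, Sdhc and Atp5d lie low at short lengths.

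Other mitochondrial gene groups were set beside the members. The 36 complex I subunit genes had a median log2 ratio of -0.31, the same as the members to 2 decimals, with 30 below 0 and 1 (2.78%) with separate bounds. The 77 mitochondrial ribosomal protein genes had a median of -0.31, with 61 (79.2%) below 0 and 10 (13%) with separate bounds, Rbfox2 OE lower. Of all genes compared, 53.8% were below 0, against 83.3% of the complex I genes. The 14 TCA cycle genes had a median of -0.57, with 14 below 0 and 4 (28.6%) with separate bounds, Rbfox2 OE lower, against the 9.33% of all genes. By contrast, 76 of 78 cytosolic ribosomal protein genes, which are also short and abundant, lay above 0, against 46.2% of all genes, with a median of 0.52. These lists are given side by side without a test of their differences. The medians on rescaling were -0.17 for complex I, -0.18 for mitochondrial ribosomal proteins, -0.42 for the TCA cycle and 0.67 for cytosolic ribosomal proteins.

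**Figure D5:**
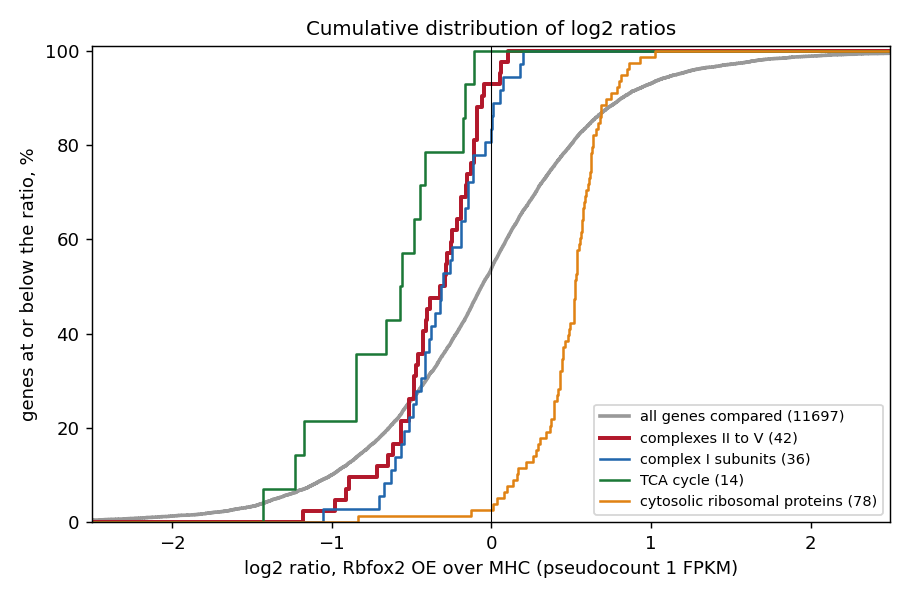
Cumulative share of genes (%) at or below each log2 ratio of Rbfox2 OE over MHC, for all genes compared, the 42 members, complex I subunits, the TCA cycle and cytosolic ribosomal proteins. The curves of the members and of complex I run close together, with medians of -0.31, the TCA cycle lies to their left at -0.57 and cytosolic ribosomal proteins to their right at 0.52.

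Genes that help to build complexes II to V were compared as a list of 35 assembly factors, of which 34 passed the minimum. Their median log2 ratio was -0.37, and 27 (79.4%) were below 0, against 53.8% of all genes compared. Separate bounds with Rbfox2 OE lower were found for 5 (14.7%), against 9.33%, and with Rbfox2 OE higher for 0, against 6.66%. On rescaling 3 (8.82%) had separate bounds with Rbfox2 OE lower, against 7.16%. Lrpprc, which stabilises mitochondrial messenger RNAs including those of complex IV, stood at 61.4 FPKM in MHC (36.8 to 86.0) and 10.6 FPKM in Rbfox2 OE (6.11 to 15.2), a log2 ratio of -2.42. Lyrm7, a chaperone of the Rieske protein, stood at 9.48 FPKM (4.53 to 14.4) and 1.26 FPKM (0.261 to 2.26), a log2 ratio of -2.21. Bcs1l, which inserts the Rieske protein into complex III, stood at 26.2 FPKM (18.1 to 34.3) and 9.15 FPKM (6.02 to 12.3), a log2 ratio of -1.42. The log2 ratios of Lyrm7 and Bcs1l were lower than that of their client gene Uqcrfs1, which was -0.52. Both are named because their bounds were separate, so this gap carries that choice, and it was not tested. The other complex III assembly factors, Uqcc1, Ttc19, Uqcc2 and Uqcc3, had log2 ratios of -1.18, -0.77, -0.05 and 0.24, each with overlapping bounds. The complex IV assembly factors Coa6 and Coa5 had log2 ratios of -1.03 and -0.96. Over the 6 complex III assembly factors the median was -0.97, over the 20 of complex IV -0.40, over the 4 of complex II -0.24 and over the 3 of complex V 0.04.

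Of 13 further subunit and accessory genes, 12 were in the table and 9 passed the minimum, with a median log2 ratio of -0.10 that became 0.01 on rescaling. Atp5s, which encodes a coupling factor of the ATP synthase, was the 1 gene with separate bounds, at 10.9 FPKM in MHC (7.34 to 14.5) and 4.32 FPKM in Rbfox2 OE (2.71 to 5.93). The 6 mitochondrially encoded partners mt-Cytb, mt-Co1, mt-Co2, mt-Co3, mt-Atp6 and mt-Atp8 had the status HIDATA in both groups, which Cuffdiff gives where fragments are too numerous for an estimate, and were listed at 0. The balance of nuclear and mitochondrial subunits could therefore not be examined.

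Among 14 regulators of mitochondrial gene expression, 9 (64.3%) were below 0, against 53.8% of all genes compared. The bounds were separate with Rbfox2 OE lower for 2 (14.3%), against 9.33%. Esrrg, a nuclear receptor that activates genes of oxidative metabolism in the heart, stood at 14.9 FPKM in MHC (9.46 to 20.4) and 1.66 FPKM in Rbfox2 OE (0.956 to 2.37), a log2 ratio of -2.58. Ppargc1a, the coactivator PGC-1alpha, stood at 57.4 FPKM (32.3 to 82.5) and 20.3 FPKM (13.4 to 27.1), a log2 ratio of -1.46. The list as a whole ran in both directions, with a median of -0.32 and a highest log2 ratio of 0.73. Among regulators whose motifs are searched below, Nrf1, Gabpa, Esrra and Yy1 had log2 ratios of 0.35, -0.11, -0.45 and 0.68, with overlapping bounds.

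Binding motifs of such regulators were searched in the promoters of the members, as letters on both strands, over 300 bases from 250 before to 50 after the start. The NRF1 motif, GCGCA and GCGC with any base between them, was found in 10 of 33 members (30.3%), against 4.6% of all promoters. The GABPA motif CCGGAAG was found in 12 of 33 (36.4%), against 8.86%. The estrogen-related receptor motif TCAAGGTCA was found in 2 members, Sdhd and Atp5g3 (6.06%), against 0.423%, and the YY1 motif AAGATGGCG in 2, Atp5j and Atp5j2 (6.06%), against 1.4%. The MEF2 motif was found in 0 of 33 members, against 3.19%. The NRF1 and GABPA letters contain CG, and the members held a median of 14 CG pairs in the 250 bases before the start, against 6 over all promoters. The part of CG content in these shares was not tested. A member counted when any of its promoters matched, and 3 members had several, whereas the background counts each promoter. The median log2 ratio of the members was -0.38 with and -0.25 without the NRF1 motif, and -0.16 with and -0.40 without the GABPA motif, and these differences were not tested. The letters of the NRF1 and GABPA motifs do not overlap in the window shown next.

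The 2 ends of the range are shown, 150 bases before the start from the same table, 5′ to 3′ on the strand of the gene, with NRF1 and GABPA matches in capitals. Sdha, the member with the lowest log2 ratio, lies at chr13:74350241-74350390, minus strand, and Cox6a1, with the highest, at chr5:115348959-115349108, minus strand.
Sdha: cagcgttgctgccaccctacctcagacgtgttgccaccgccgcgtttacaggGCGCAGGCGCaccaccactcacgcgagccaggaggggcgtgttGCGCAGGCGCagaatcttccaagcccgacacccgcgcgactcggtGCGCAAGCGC
Cox6a1: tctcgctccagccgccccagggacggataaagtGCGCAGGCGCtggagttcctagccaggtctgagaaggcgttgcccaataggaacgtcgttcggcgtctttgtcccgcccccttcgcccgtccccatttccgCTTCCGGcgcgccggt
Sdha held 3 NRF1 matches, which began 98, 55 and 10 bases before the start. Cox6a1 held 1 NRF1 match, 117 bases before the start, and 1 GABPA match on the other strand, 16 bases before it. The start here is that of RefSeq. GENCODE, the source of the gene coordinates, places it within both stretches, at 74350280 for Sdha and 115348981 for Cox6a1. By that annotation the Sdha match nearest the RefSeq start and the GABPA match of Cox6a1 lie inside the gene. The NRF1 letters thus stood before both genes, and a match is a description of the sequence, not a bound site.

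Markers of cell types were compared in the same libraries. Cardiomyocyte markers were present at high levels, and of 15, 12 had an estimate in both groups. Of these 12, 11 (91.7%) had a log2 ratio below 0, against 53.8% of all genes compared, and the median was -0.66. The bounds were separate with Rbfox2 OE lower for 5 (41.7%), against 9.33%. They summed to 71928 FPKM in MHC and 46728 FPKM in Rbfox2 OE. Myh6 and Mb were listed at 0 with the status HIDATA in both groups, and Atp2a2 in MHC. Markers of other cells were higher in Rbfox2 OE and none of them was at 0. Of 8 fibroblast markers 8 were above 0, with summed levels of 213 and 504 FPKM, and of 8 endothelial markers 8 were above 0, with sums of 226 and 398 FPKM. Of 8 macrophage and leukocyte markers 8 were above 0, with sums of 119 and 394 FPKM, of 7 smooth muscle and pericyte markers 7, with sums of 146 and 326 FPKM, and of 5 red blood cell markers 5, with sums of 56.6 and 295 FPKM. Above 0 lay 46.2% of all genes compared. The bounds were separate with Rbfox2 OE higher for 5 fibroblast, 3 endothelial and 7 macrophage and leukocyte markers. The same held for 3 smooth muscle and pericyte and 4 red blood cell markers, against 6.66% of all genes. The bounds of the rest overlapped. In such pooled preparations fewer cardiomyocytes and less RNA per cardiomyocyte cannot be told apart, and the part of other cells in the levels of the members, including the ubiquitous complex IV isoforms, was not tested.

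The assignment of fragments limits some values. Of the 42 members, 20 shared no 50-base sequence with another annotated gene, among them Sdha, Uqcrc1, Cox8b, Cox8a, Cox7a1, Cox7a2 and Cox6a2. More than 20% was shared for 9 members, from 21.8% for Cox5b to 68.5% for Atp5l. The table placed 16 members in a locus together with other gene rows, and Sdha is one of them, overlapped on the opposite strand by Gm16125.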

How the data were processed

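Polyadenylated RNA of cardiomyocytes was made into stranded TruSeq libraries and read on a HiSeq4000, as the labels' protocols state. Sample titles gave the groups, MHC and Rbfox2 OE, with 2 libraries in each. The submitters' processing notes list bcl2fastq 2.17.1.14, Trimmomatic, STAR 2.4.2a, Picard 1.119, HTSeq, DESeq2 and Cuffdiff 2.2.1 and the builds GRCm38 and mm10, with no order. The values are FPKM deposited by the authors in a Cuffdiff table, per the file headers, with 1 value, 2 bounds and a status per gene and group; the level of the bounds, the scaling mode and the annotation are not given in the sources used here. The table holds no value per library and no read totals, so depth, replicate spread and counting error are unknown and no p-value was computed.

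Rows sharing a name (110 names) were summed, and the 11697 genes whose mean reached 1 FPKM were compared as log2 ratios after adding 1 FPKM, in Python 3.11.15, pandas 2.3.3 and numpy 2.4.6. Separate bounds and a 1.5-fold difference were counted, with the same counts over all genes as background. Coordinates, coding lengths and 50-base sequences came from GENCODE M21 (GRCm38), and promoters from RefSeq (GRCm38.p6), which held 33 of the 42 genes. Sdhc, Uqcrc2, Uqcrb, Uqcrq, Cyc1, Cox4i1, Cox6a2, Cox6c and Atp5a1 were not matched, and Atp5f1 was matched through its synonym. The calculations were tested on simulated data. The members and lists were chosen with earlier results of these data known. All members are named. Of the assembly, further subunit and regulator lists, genes with separate bounds are named, up to 6 per list. The other complex III assembly factors and regulators with a searched motif were added. Alternatives covered the pseudocount, the scaling, the minimum, the fold and rows sharing a name.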

Additional observations from a re-analysis of the deposited data

How the results depend on the processing

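No paired analysis was possible because each group is deposited as 1 combined value, with nothing per replicate number. No library could be left out in turn either, and how far 1 library decides a value is unknown. Counts depended on the scaling and on the fold. Rescaling without the 10 most abundant and the mitochondrially encoded genes left 1 member, Sdha, with separate bounds in place of 3, and 4 members at least 1.5-fold lower in place of 7, against 7.16% and 17.7% of all genes under the same scaling. A 2-fold threshold gave 1 member, with Rbfox2 OE lower, against 1172 of the 11697 genes compared. Centring on the median gene left 2 members (4.76%) with separate bounds, without Cox8b, against 8.41% of all genes on the lower side. It left 5 (11.9%) at least 1.5-fold lower, against 19.8%. The median log2 ratios of the members, of complexes II to V and of the assembly factors kept their sign. This held under the pseudocounts, minimums, scalings and row choices tried. The medians moved by less than the authors' bounds span, but those bounds are too wide for this to show stability. For the members they reach a median of 0.85 (log2) to either side, more than the size of any of these medians. The median of the members ranged from -0.31 to -0.16 and that of complex IV from -0.19 to -0.04. The number of members below 0, an addition made after seeing the data, was 31 on rescaling and 37 on centring, and 39 otherwise. Of all genes compared, 45.7% were below 0 on rescaling, 50% on centring and 53.8% as deposited. Members have 1 row each, so the isoform shares did not change. Depth is unknown, and no difference was tested. Member bounds of median width separate only at about 1.80-fold. The distance of a bound from its value ran from 26.7% to 59.2% among members, so that fold is not a limit for each gene.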
